A study of Mus musculus with 8 samples.

Results

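The mouse genes named Zfp and a number were examined in primary microglia, the resident macrophages of the brain, from C57BL/6 mice. Members were chosen by their name and by the scanner's flag for signal well above background: a gene was included when its symbol was Zfp followed by digits only, Zfp36 was left out, and its probe was well above background on all 8 arrays. Of 371 such symbols in the RefSeq gene table, 340 had a probe on the array and 265 (77.9%) met the rule. These 265 genes, called members here, were set against all 17009 genes well above background on all 8 arrays. The cells were treated for 3 h with PBS or with 20 µg/ml of 1 of 3 proteins: Fc, a fragment of an antibody, Fc joined to a piece of the secreted protein Ecrg4 spanning residues 71 to 132, or Fc joined to a piece spanning residues 133 to 148. Fc carries no Ecrg4 sequence and is the control for both fusions. Each of the 4 treatments was measured on 2 one-colour Agilent arrays, whose titles number them as set 1 and set 2. The labels do not say whether the sets were separate cultures or animals, so p-values measure only the spread between these samples, which may be technical. The flags that chose the members are values of these same arrays, and the group was proposed with earlier results known. Directions of treatment are therefore given as descriptions, beside the same values over all genes.

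Most genes with this name encode proteins with zinc fingers, small folds held by a zinc ion that can read a short DNA sequence when several stand in a row. Many also carry a KRAB domain, which binds the corepressor Trim28 and through it the histone methyltransferase Setdb1, and so silences the bound DNA. Retrotransposons are well-known targets, and their silencing restrains the innate immune sensing that macrophages such as microglia are equipped for. Many KRAB zinc finger genes lie side by side in runs that arose by duplication, so that neighbours can be near copies of each other. The name alone does not define a function: Zfp598 is a ubiquitin ligase that acts on collided ribosomes, and Zfp622 acts in the assembly of the large ribosomal subunit.

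The sequences upstream of 5 neighbours on chromosome 4 are shown because these genes differed together between the sets and carry near-identical promoters. They are RefSeq sequences of GRCm38.p6, each ending before the annotated start, written 5′ to 3′ along the gene's strand. Capitals mark a stretch of 21 bases that all 5 share.
Zfp600, chr4:146156646-146156766, plus strand: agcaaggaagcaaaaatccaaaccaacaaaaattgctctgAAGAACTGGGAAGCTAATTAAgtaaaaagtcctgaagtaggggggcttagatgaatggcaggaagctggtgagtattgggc
Zfp979, chr4:147642575-147642695, minus strand: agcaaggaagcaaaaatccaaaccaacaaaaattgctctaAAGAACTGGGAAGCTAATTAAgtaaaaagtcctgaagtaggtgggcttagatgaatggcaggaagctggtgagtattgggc
Zfp982, chr4:147492220-147492340, plus strand: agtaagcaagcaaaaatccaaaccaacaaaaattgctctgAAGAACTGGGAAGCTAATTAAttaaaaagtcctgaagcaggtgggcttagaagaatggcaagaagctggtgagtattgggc
Zfp985, chr4:147553095-147553215, plus strand: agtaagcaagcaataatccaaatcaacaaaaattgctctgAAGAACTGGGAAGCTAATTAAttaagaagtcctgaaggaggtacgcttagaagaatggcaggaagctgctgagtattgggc
Zfp534, chr4:147702663-147702783, minus strand: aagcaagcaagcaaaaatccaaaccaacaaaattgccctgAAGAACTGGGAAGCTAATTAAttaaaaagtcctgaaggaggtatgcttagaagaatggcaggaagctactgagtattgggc

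The promoters of 2 members that were lower and 2 that were higher with Ecrg4(71-132) in both sets are shown as the leading members of each direction. Each is the 150 bases before the last start listed for the gene in the same RefSeq table, on GRCm38.p6. Capitals mark GGGCGG, the GC box, or TATAAA, the TATA box, read on either strand.
Zfp810, chr9:22307639-22307788, minus strand: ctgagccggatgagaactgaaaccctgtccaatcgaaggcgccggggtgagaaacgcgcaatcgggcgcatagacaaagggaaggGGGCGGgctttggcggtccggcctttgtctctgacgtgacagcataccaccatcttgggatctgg
Zfp760, chr17:21707591-21707740, plus strand: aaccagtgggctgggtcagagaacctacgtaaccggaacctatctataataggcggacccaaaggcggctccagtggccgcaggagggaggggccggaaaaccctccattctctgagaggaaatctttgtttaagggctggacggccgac
Zfp791, chr8:85119692-85119841, minus strand: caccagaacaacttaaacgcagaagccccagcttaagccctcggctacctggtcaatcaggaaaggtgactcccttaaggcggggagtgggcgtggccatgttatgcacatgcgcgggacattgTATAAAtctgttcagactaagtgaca
Zfp382, chr7:30121782-30121931, plus strand: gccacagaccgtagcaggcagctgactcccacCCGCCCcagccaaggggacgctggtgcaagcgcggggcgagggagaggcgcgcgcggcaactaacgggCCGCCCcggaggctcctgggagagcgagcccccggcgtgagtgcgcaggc

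All levels are log2 signals, with the 75th percentile of the array's spots at 0, and all differences are on the log2 scale. The members were dimmer than the average gene. Their median level was -0.03, with quartiles at -1.52 and 1.59, against a median of 1.28 for all genes. The brightest member was Zfp628 at 8.72, followed by Zfp408 at 7.99, Zfp658 at 5.95, the ribosome assembly factor Zfp622 at 5.81 and Zfp710 at 5.04. The dimmest was Zfp560 at -3.65. Levels of different probes also depend on the probe, so this order is of signals and not of transcript amounts. Among symbols that missed the rule, 56 were well above background on 1 to 7 arrays and 19 on none. The 12 that missed on only 1 array had mean levels from -3.60 for Zfp974 to -2.63 for Zfp286. Zfp423, a regulator of adipocyte and neural precursor fate, was among these at -3.54, and its missing array was Fc of set 2.

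Microglial markers were present, and the sets also differed in summed markers of other cells. Of 12 microglial markers, 11 were well above background on all 8 arrays, and their summed level ran from 10.11 to 10.30. That sum rests on the brightest of them. Single markers varied more: Cx3cr1 ran from -3.25 to 4.71 across arrays, C1qa from 3.91 to 6.53 and C1qb from 3.28 to 6.16, and Tmem119 was well above background on 5 arrays. Summed fibroblast markers were at 4.56 to 5.68 in set 1 and -1.28 to -0.12 in set 2. Astrocyte markers were at 4.90 to 5.43 against 6.18 to 6.26, and oligodendrocyte lineage markers at 5.40 to 5.49 against 6.53 to 6.80. Summed neuronal markers were at 2.51 to 2.61 against 2.78 to 3.48, and endothelial markers at 0.85 to 1.08 against 2.52 to 2.72. These sums too rest on their brightest genes and do not show that all markers of a cell type moved alike. Of 8 astrocyte markers, only Aldoc and Aldh1l1 were well above background on all 8 arrays, and Gfap ran from -6.23 to 2.43. Among endothelial markers, Flt1 ran from 0.61 to 2.63 and Cldn5 was well above background on 1 array. Of the 6 neuronal markers, Snap25 and Syp were well above background on all 8 arrays and Syt1 on none. The probes well above background numbered 24211 to 29423 per array, and no spot was saturated. In bulk RNA, fewer cells of a type and less RNA per cell cannot be told apart.

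With Ecrg4(71-132), members were more often lower than higher, by small amounts. Against Fc, 132 of 265 members (49.8%) were lower in both sets, where 36.5% of all genes were. Only 40 members (15.1%) were higher in both sets, against 29.1% of all genes. The median member difference was -0.093 in set 1 and -0.069 in set 2, where the medians of all genes were -0.009 and -0.033. In set 1, 199 members (75.1%) were lower, and in set 2 158 (59.6%) were, where 52.0% and 55.4% of all genes were. Differences were small throughout: 1 member was lower by over 1.5-fold in both sets and 0 were higher by that much, where 0.852% and 1.08% of all genes passed these limits. Across the 265 members the differences of set 1 and set 2, which share no array, had a Pearson correlation of 0.39, and across the other genes 0.50. Genes measured on the same arrays are not independent, so this is a description.

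**Figure D1:**
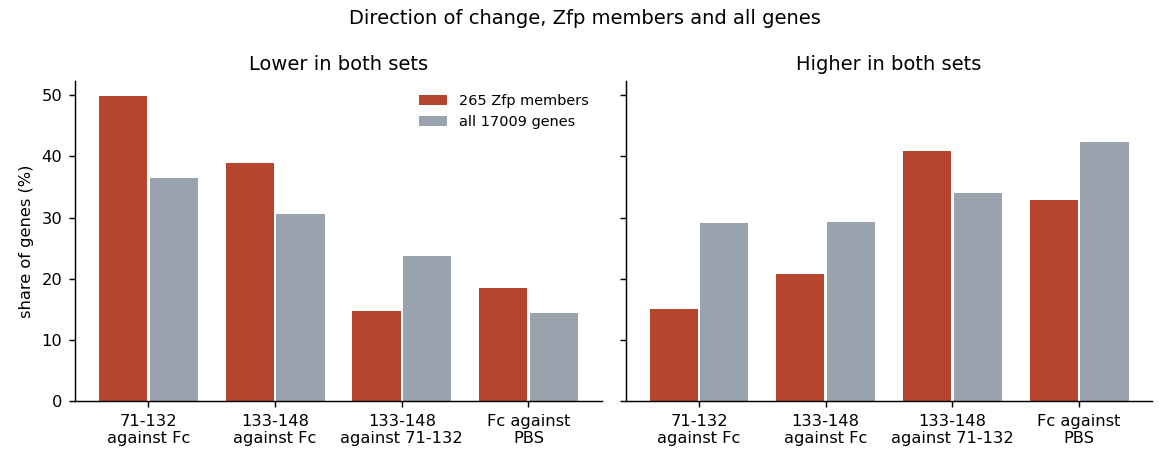
Share of genes (%) lower or higher in both sets for 4 comparisons, for the 265 Zfp members and for all 17009 genes. For Ecrg4(71-132) against Fc the members stand at 49.8% lower and 15.1% higher, beside 36.5% and 29.1% of all genes.

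**Figure D2:**
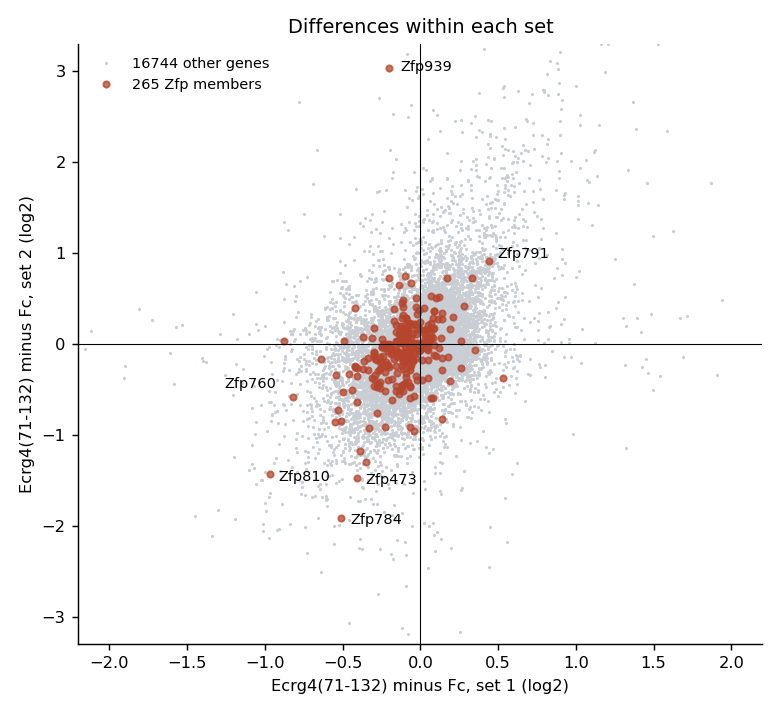
Ecrg4(71-132) minus Fc (log2) in set 1 (horizontal) and set 2 (vertical) for each of the 265 members and 16744 other genes, of which 52 fall outside the axes. The lower left corner holds 132 members and the upper right corner 40.

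No single gene passed the test across all genes. Limma, fitted to all 8 arrays with Benjamini-Hochberg adjustment over 19114 genes, called 0% of genes and 0 members at an adjusted p under 0.05 for Ecrg4(71-132) against Fc. An unadjusted p under 0.05 was reached by 643 genes and 6 members. Because that fit has no term for the set, its error takes in the differences between sets. With the set as a replicate block, limma again called 0 genes, the lowest adjusted p was 0.178, and 3556 genes and 50 members had an unadjusted p under 0.05. The scaling of the arrays sets where 0 lies. Centred on array medians, the median of all genes moved to 0.140 in set 1 and -0.039 in set 2, and 76 members were lower and 90 higher in both sets, where 17.9% and 38.5% of all genes were. Relative to the median of all genes, the member median was -0.083 in set 1 and -0.036 in set 2 under that centring.

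The shift was read against genes of similar level, the other genes nearest to each member in mean signal. The median member stood -0.067 from them in set 1 and -0.025 in set 2, and 183 members (69.1%) and 137 members (51.7%) stood below them. In set 2 the members were thus nearly evenly divided around genes of their own level. The genes of similar level include transcripts without a gene symbol. Over the mean of both sets the median member stood -0.048 from them, and -0.029 when only named genes served as similar genes. In 4 bands of level, cut at the members' quartiles and taken from dimmest to brightest, the share lower in both sets was 62.1%, 50%, 43.9% and 43.3% of members. It was 37.1%, 40%, 41.9% and 32.9% of other genes in the same bands. The member share was above that of the other genes in each band, and by most in the dimmest. The Ecrg4(71-132) array of set 1 had 25790 probes well above background and the Fc array of set 1 had 29163, against 25362 and 24211 in set 2. The part of this signal difference in the result was not tested.

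**Figure D3:**
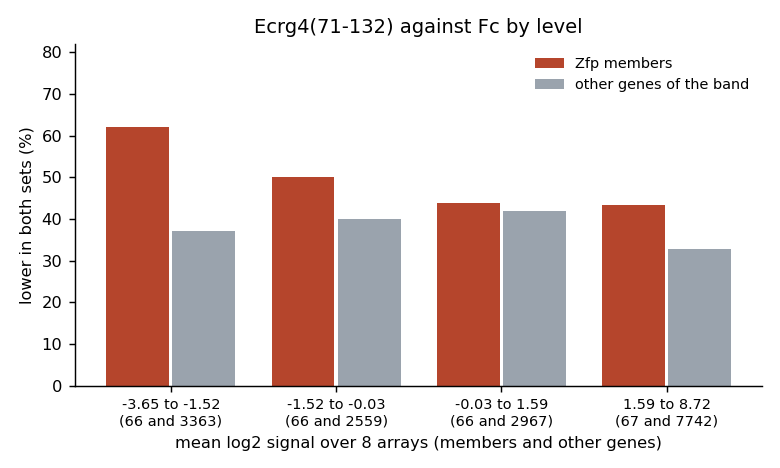
Share (%) of members and of other genes that were lower in both sets with Ecrg4(71-132) against Fc, in 4 bands of mean log2 signal, with the number of members and other genes under each band. Members stand at 62.1% in the dimmest band and 43.3% in the brightest, beside 37.1% and 32.9% of the other genes.

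The members with the largest differences in both sets were mostly dim. In set 1 Zfp810 stood at -2.18 with PBS, -1.91 with Fc, -2.88 with Ecrg4(71-132) and -2.35 with Ecrg4(133-148), and in set 2 at -0.89, -1.17, -2.61 and -2.01. Both Ecrg4(71-132) arrays lay below all 6 others, and this was the member lower by over 1.5-fold in both sets. Its mean difference against Fc was -1.20 ± 0.49 (SE, limma), with an adjusted p of 1 in limma, or 0.207 with the set as a replicate block. Zfp760 was at -1.92, -1.96, -2.78 and -2.26 in set 1, in the same order of treatments, and at -1.07, -1.29, -1.87 and -1.55 in set 2. Its Ecrg4(71-132) array was the lowest of each set, and its mean difference against Fc was -0.70 ± 0.50 (SE). The SE values of treatment differences are from the fit without the set and take in the differences between sets. Zfp467, which favours adipocyte over bone cell fate, was brighter: 0.99, 1.05, 0.51 and 0.86 in set 1 and 1.17, 1.0, 0.14 and 0.71 on the set 2 arrays. Its 2 Ecrg4(71-132) arrays lay below all 6 others, with a mean difference of -0.70 ± 0.18 (SE) against Fc. Those values are of the brightest of 4 Zfp467 probes, and the second differed from Fc by only -0.21 in set 1 and -0.12 in set 2. The other 5 named by the rule, Zfp971, Zfp704, Zfp784, Zfp839 and Zfp563, differed from Fc by -0.53, -0.51, -0.51, -0.50 and -0.44 in set 1. In set 2 they differed by -0.73, -0.85, -1.92, -0.53 and -0.51. The Zfp784 value in set 2 turned on its Fc array, which stood at -0.30 while the other 7 arrays lay between -2.48 and -1.79.

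Members higher in both sets were fewer. In set 1 Zfp791 stood at 4.32 with PBS, 4.34 with Fc, 4.78 with Ecrg4(71-132) and 4.63 with Ecrg4(133-148), and in set 2 at 4.36, 4.39, 5.30 and 4.71. Both fusions were above both controls in each set, and the mean difference of Ecrg4(71-132) against Fc was 0.67 ± 0.20 (SE). Zfp382 was at -2.76, -2.64, -2.31 and -2.37 in set 1 and -2.57, -2.51, -1.78 and -2.24 on the set 2 arrays, again with both fusions above both controls. Zfp281, a regulator of pluripotency genes, differed from Fc by 0.21 and 0.30 in sets 1 and 2. Zfp384, a factor known from leukaemia gene fusions in its human form, differed by 0.28 and 0.42. Zfp800, Zfp330, Zfp488 and Zfp689 differed by 0.17, 0.19, 0.14 and 0.14 in set 1, and by 0.73, 0.16, 0.27 and 0.34 in set 2. A second probe differed by 0.20 and 0.66 for Zfp800, 0.16 and -0.0 for Zfp330, and 0.38 and -0.07 for Zfp689. Adjusted p was 1 in limma for each of these 16 members, and 0.178 to 0.309 with the set as a replicate block.

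**Figure D4:**
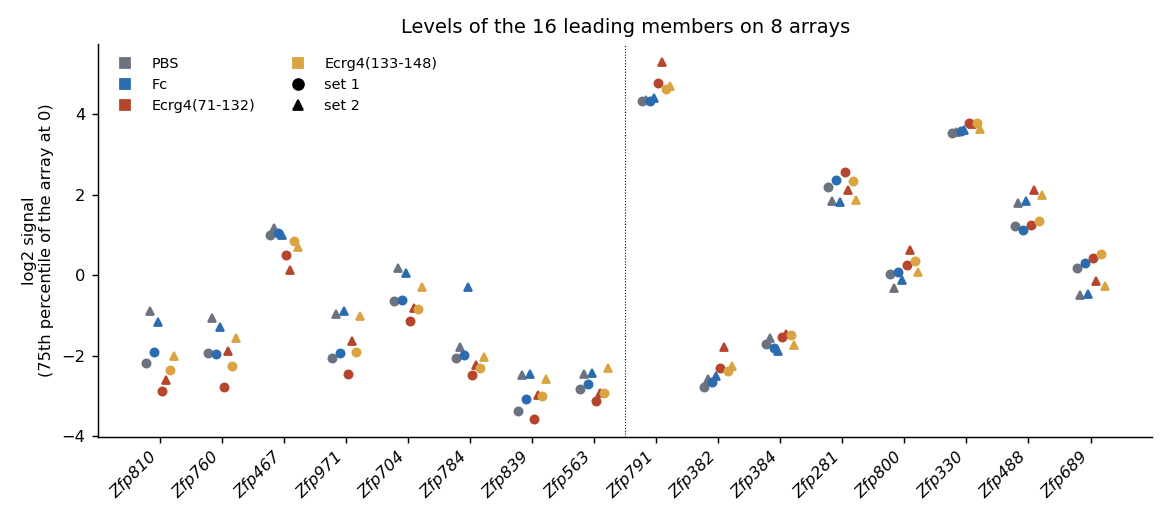
Log2 signal of the 8 members lowest (left of the dotted line) and the 8 highest in both sets with Ecrg4(71-132) against Fc, on each of the 8 arrays, with colour for treatment and shape for set. The members were chosen for these differences. Each is shown by its brightest probe. The Ecrg4(71-132) points of Zfp810 at -2.88 and -2.61 and of Zfp467 at 0.51 and 0.14 lie below the points of all other arrays of the gene.

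Members with known roles, listed by role and not by value, mostly differed little. Among those tied to silencing, Zfp809, which silences murine leukaemia virus sequences through Trim28, was at -1.14, -1.07, -1.40 and -1.09 in set 1 and -0.66, -0.69, -1.62 and -1.12 on the set 2 arrays. Its difference against Fc with Ecrg4(71-132) was -0.33 and -0.93. A second Zfp809 probe differed by -0.06 and -0.38. Zfp57 and Zfp445, which maintain genomic imprints, differed by 0.05 and 0.01, and by 0.00 and 0.24. Zfp568, a repressor of a placental Igf2 promoter, differed by -0.08 and -0.19. Among activators, Zfp143, which binds many housekeeping promoters, differed by 0.12 and 0.52, and Zfp410, whose known target is Chd4, by 0.05 and 0.21. Chd4 itself differed by 0.03 and 0.50. Zfp148 and Zfp217, not counted among these activators, differed by -0.22 and -0.24, and by -0.04 and -0.11. A second probe differed by 0.14 and -0.19 for Zfp148 and by -0.15 in each set for Zfp217. Outside transcription, the ribosome collision factor Zfp598 differed by -0.14 and 0.65, Zfp622 by -0.08 and 0.07, and the mitotic spindle factor Zfp207 by 0.01 in each set. The differences of Zfp598 and Zfp622 had opposite signs in the sets.

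Some of the widest differences came from 1 array. Zfp939, chosen after its values were seen, was at -0.36 on the Ecrg4(71-132) array of set 2 and between -3.43 and -2.77 on the other 7 arrays. Its difference against Fc was 3.04 in set 2 and -0.20 in set 1. Zfp473, chosen likewise, differed by -0.41 in set 1 and -1.48 in set 2. Its Ecrg4(133-148) array of set 2, at -2.26, lay between the Ecrg4(71-132) array at -3.01 and Fc at -1.52.

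A second probe gave another reading of the same genes on the same arrays. For 73 members with more than 1 probe well above background, the first and second probe differed in the same direction in 47 members in set 1 and 51 in set 2. By the second probe 35 of 73 were lower in both sets, by the first 36, and by both 23. Of all genes, each by its brightest probe, 36.5% were. The second probe's medians were -0.072 and -0.095 and the first probe's -0.056 and -0.032, where those of all genes were -0.009 and -0.033. First and second probe differences had a Pearson correlation of 0.39 in set 1 and 0.29 in set 2. Both probes thus had medians below 0, while agreement gene by gene was partial.

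The fragment of residues 133 to 148 gave member medians below 0 too, and nearer 0, at the scaling used. Against Fc, 103 members (38.9%) were lower and 55 (20.8%) higher in both sets, where 30.6% and 29.3% of all genes were. The member medians were -0.021 and -0.056, with all genes at 0.014 and -0.019, and the members stood -0.022 and -0.027 from genes of similar level. Centred on array medians, 84 members were lower and 82 higher, where 22.1% and 41.1% of all genes were, and the set 1 median was 0.001. After normexp background correction 80 were lower and 61 higher, with a set 1 median of 0.006. Limma called 0% of genes and 0 members, with 88 genes and 0 members at an unadjusted p under 0.05. With the set as a replicate block it again called 0 genes, and the lowest adjusted p was 0.836. In that fit 1005 genes and 9 members had an unadjusted p under 0.05. Ranked by the smaller of its 2 within-set differences, Zfp810 came first among lower members, at -0.44 and -0.84. Next came Zfp113 at -0.34 and -0.42, Zfp784 at -0.33 and -1.72, and Zfp579 at -0.37 and -0.28. The set 2 value of Zfp784 again turned on its Fc array. On the higher side were Zfp791 at 0.29 and 0.31, Zfp382 at 0.28 and 0.27, Zfp689 at 0.22 and 0.21, Zfp800 at 0.26 and 0.20 and Zfp143 at 0.14 and 0.25. Both comparisons use the same Fc arrays, so shared members are not separate evidence.

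The fragments were also set directly against each other. With Ecrg4(133-148), 108 members (40.8%) were higher than with Ecrg4(71-132) in both sets and 39 (14.7%) lower, where 34% and 23.7% of all genes were. The medians were 0.083 in set 1 and 0.012 in set 2, and beside genes of similar level 0.044 and -0.016, which have opposite signs. Limma called 0% of genes and 0 members, with 141 genes and 1 member at an unadjusted p under 0.05. With the set as a replicate block it again called 0 genes, and the lowest adjusted p was 0.714. In that fit 1210 genes and 18 members had an unadjusted p under 0.05. The members highest with Ecrg4(133-148) relative to Ecrg4(71-132) were Zfp971 by 0.54 and 0.62, Zfp810 by 0.53 and 0.60 and Zfp839 by 0.56 and 0.40. On the lower side were Zfp281 by -0.24 and -0.23, Zfp513 by -0.19 and -0.27 and Zfp263 by -0.17 and -0.25. Under centring on array medians 73 members were lower and 78 higher, where 29.4% and 16.3% of all genes were.

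The controls were compared in the same way. With Fc against PBS, 87 members (32.8%) were higher and 49 (18.5%) lower in both sets, where 42.3% and 14.4% of all genes were. The medians were 0.045 and -0.013, and beside genes of similar level -0.003 and -0.020. Set 1 and set 2 correlated at 0.05 across members and at 0.05 across other genes. Limma called 0% of genes and 0 members, with 51 genes and 0 members at an unadjusted p under 0.05. With the set as a replicate block it again called 0 genes, with 355 genes and 1 member under that unadjusted limit. Centred on array medians, 10 members were lower and 176 higher, where 4.3% and 72.3% of all genes were. By the smaller of the within-set differences, the leading members on each side were dim. Zfp560, the dimmest, was higher by 0.31 and 0.24, and Zfp108 was lower by -0.36 and -0.32. Among bright members, Zfp975 was higher by 0.49 and 0.12, and Zfp703, a factor amplified in breast cancer in its human form, was lower by -0.12 and -0.30.

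PBS was then taken as the reference. Against PBS, 119 members (44.9%) were lower with Ecrg4(71-132) and 57 (21.5%) higher in both sets, where 30% and 36.4% of all genes were. With Ecrg4(133-148), 90 (34.0%) were lower and 55 (20.8%) higher, where 22.2% and 38.5% of all genes were. In the latter comparison 121 members (45.7%) were lower in set 1 and 179 (67.5%) in set 2, with member medians of 0.022 and -0.063. Of all genes 32.4% and 51.3% were lower, with medians of 0.075 and -0.005. Beside genes of similar level the members stood at -0.023 and -0.032. Limma called 0% of genes and 0 members in each, and 0% when both fusions were set against both controls. At an unadjusted p under 0.05 there were 932, 186 and 885 genes, with 9, 0 and 12 members. With the set as a replicate block there were 4529, 1748 and 4457 genes, with 61, 17 and 54 members. In that fit limma again called 0 genes, with lowest adjusted p of 0.105, 0.528 and 0.0989. The Ecrg4(71-132) array was the lowest of the 4 in both sets for 77 members (29.1%), against 19.3% of all genes, and the highest for 13 (4.9%), against 14.2%. PBS was the lowest for 25 members (9.4%), against 19.1% of all genes.

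The partners of KRAB zinc finger proteins were taken from a separate list. Of 20 measured genes of this corepressor machinery, 12 were lower and 6 higher in both sets with Ecrg4(71-132) against Fc, where 36.5% and 29.1% of all genes were, and limma called 0 of them. Trim28, the corepressor itself, was at 3.53, 3.61, 3.43 and 3.57 in set 1 and 2.86, 2.77, 2.62 and 2.80 on the set 2 arrays, with Ecrg4(71-132) lowest in each set. Setdb1, the methyltransferase, differed from Fc by -0.19 and -0.13, and its partner Atf7ip by -0.34 and -0.48. Dnmt1 and Uhrf1, which maintain DNA methylation, differed by -0.37 and -1.0, and by -0.24 and -0.79. Daxx, a histone chaperone, was higher by 0.37 and 0.34. With Ecrg4(133-148), 9 were lower and 5 higher, where 30.6% and 29.3% of all genes were.

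Other zinc finger families were set beside the members for Ecrg4(71-132) against Fc, where 36.5% of all genes were lower and 29.1% higher in both sets. Of 13 Zscan and Zkscan genes, 7 were lower and 2 higher in both sets. Of 32 Zbtb genes 9 (28.1%) were lower and 3 higher, and their median was -0.11 in set 1 but 0.13 in set 2. Of 18 Zdhhc genes, palmitoyl transferases with an unrelated fold, 8 were lower and 7 higher. Of 7 Zfyve genes 3 were lower and 0 higher. Of 14 Zc3h genes, whose fingers bind RNA, 4 were lower and 8 higher, led by Zc3h12a, a nuclease that degrades inflammatory transcripts, at 0.90 and 2.10, and Zc3h12c at 0.55 and 1.75. Limma called 0 genes of these lists. Of the mRNA decay factors that carry the Zfp36 name and were left out of the members, Zfp36 differed by 0.45 and 0.17, Zfp36l1 by 0.01 and -1.14, and Zfp36l2 by -0.49 and -0.51.

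Many genes were called between the sets and 0 between treatments, but the tests were unlike. The test of the sets compared 4 arrays with 4 and held a term for treatment. Most treatment tests compared 2 arrays with 2, and their main fit held no term for the set. The counts called are therefore no comparison of effect sizes. Limma called 59.3% of all genes between set 2 and set 1, and 148 of 265 members (55.8%). Of these, 106 (40%) were higher in set 2 and 42 (15.8%) lower, where 36.4% and 22.8% of all genes were. The test takes the 4 treatments as replicates of the set difference. Its p-values, here and below, measure the spread among arrays and cannot measure the spread among sets. In all 4 treatments 127 members (47.9%) were higher in set 2 and 54 (20.4%) lower, against 45% and 27.7% of all genes. Zfp703 was at 4.08, 3.96, 4.03 and 3.97 in set 1 and 6.31, 6.01, 5.41 and 5.62 on the set 2 arrays, with no overlap and a difference of 1.82 ± 0.16 (SE, adjusted p = 0.00105 in limma). Zfp975 was at 2.90 to 3.46 in set 1 and 4.68 to 4.95 in set 2. On the lower side, Zfp821 differed by -1.28, Zfp7 by -0.98 and Zfp41 by -0.74. Zfp568 differed by 1.02 and Zfp488, an oligodendrocyte factor, by 0.69. The summed fibroblast, astrocyte, oligodendrocyte, neuronal and endothelial markers above also differed between the sets, and their part in these differences was not tested. The place on the slide that held each set cannot be told apart from the set.

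Neighbouring members on chromosome 4 differed together. Taking Zfp genes whose starts lie less than 1 Mb apart as a run, 14 runs held 5 or more members. The run from Zfp600 to Zfp933, on chromosome 4, had 9 members among 16 Zfp symbols, and limma called all 9 higher in set 2, by 0.27 to 1.55 with a median of 0.97. The run medians of the other 13 lay between -0.28 and 0.40. The median over all genes was 0.11, and over 712 other genes of chromosome 4 it was 0.04. This run was singled out after its values were seen. Zfp982 was at -1.95, -1.84, -1.98 and -2.03 in set 1 and -0.46, -0.43, -0.54 and -0.39 on the set 2 arrays, a difference of 1.49 ± 0.06 (SE, adjusted p = 0.000155 in limma, the lowest of any member). Zfp979 differed by 1.55, Zfp534 by 1.0, Zfp600 by 0.98 and Zfp985 by 0.52. Within each set these genes were nearly level across treatments: Zfp534 ran from 2.54 to 2.62 in set 1 and from 3.51 to 3.62 in set 2.

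**Figure D5:**
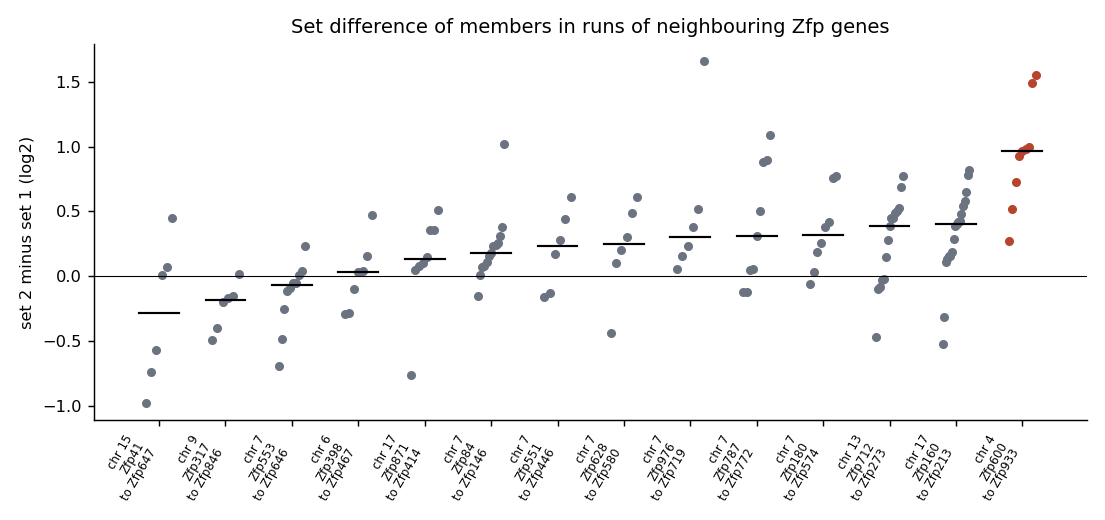
Set 2 minus set 1 (log2, mean over the 4 treatments) for each member of the 14 runs of neighbouring Zfp genes, with a bar at the median, ordered by it. The 9 members of the run from Zfp600 to Zfp933 on chromosome 4, in red, lie between 0.27 and 1.55.

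Several promoters of this run are near copies of each other. Over the 250 bases before the start, the 5 sequences printed above were 91.4% to 98.4% identical in local pairwise alignments, with Zfp600 and Zfp979 identical at 240 of 244 aligned bases. The windows of Zfp981 and Zfp984 were 81.7% to 89.4% identical to these and to each other. Zfp933 aligned over only 59 to 109 bases, at 67.9% to 82.4%, the other starts of Zfp600 and Zfp982 aligned to windows of the other genes over 12 to 171 bases, and no window was used for 1 of the 9 members. The 21 capital letters occur in 9 of 32851 promoter windows, all on chromosome 4, and each belongs to a different gene. Of these 9 genes 5 are members, and 1 other, Rex2, was tested and was higher in set 2 by 1.01 (adjusted p = 0.0403 in limma). A match is a description of the sequence and not a binding site. The files used here hold no probe sequences, and transcripts of near-identical copies can bind the same probe, so values of single genes of this run are uncertain.

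Over all members, promoters differed from the average promoter of all genes, detected on these arrays or not. A window was found for 226 members, 280 windows in all. The GC box, GGGCGG on either strand, was in 43.2% of member windows and 32.7% of all windows. The ETS motif CCGGAAG was in 15% against 6.9%, the CRE TGACGTCA in 4.3% against 1.5%, the TATA box TATAAA in 6.8% against 12.4%, and the AP-1 motif TGANTCA in 3.6% against 6.7%. No motif of this list contains another. Members lower in both sets with Ecrg4(71-132) held the GC box in 36.7% of 139 windows and the ETS motif in 17.3%, and members higher in both sets in 41.9% of 43 windows and 11.6%. Of members with a Zfp gene next to them on the chromosome, 77 of 145 (53.1%) were lower in both sets with Ecrg4(71-132), and of those without, 55 of 120 (45.8%), where 36.5% of all genes were. The former were dimmer, with a median level of -0.44 against 0.39, and in set 2 their median difference was -0.04 against -0.09, the other order.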

How the data were processed

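RNA of 8 samples was measured on 8 one-colour Agilent arrays on 1 slide. The file headers give set 1 and set 2 different first position numbers on it and do not say what that number stands for. The authors deposited linear spot intensities with the background already subtracted. The submitters' processing notes name Agilent Feature Extraction, version 11.0.1.1. A second deposited table gives log2 values, which equal log2 of those intensities minus a constant for each array. The sources used here do not give how that constant was set. Column medians of that table ran from -4.48 to -4.21.

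From the intensities, log2 signal minus each array's 75th percentile was computed, outlying spots were left out and spots of 1 probe were averaged. Of 55681 probes 104 were left out. RefSeq accessions in a gene table of GRCm38.p6 named 28026. Probes without a match were counted under their own identifier, and 12591 of the 19114 genes tested had a symbol. The brightest probe stood for each gene. Members, genes named and lists were chosen with earlier results of these data known. Named members are those with the largest value of the smaller of the 2 within-set differences (8 in each direction for Ecrg4(71-132) against Fc, 5 for other comparisons, 3 for the sets), the 5 brightest, the dimmest, a list of members of known role, and members that pass a test over all genes. The text leaves some out.

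Genes with a probe well above background in both sets of any treatment, 19114 in all, entered limma 3.58.1 (R 4.3.3), with 1 mean per treatment, Benjamini-Hochberg adjustment and a threshold of 0.05. The script was tested on simulated data. Across genes, the set differences of any 2 of the 4 treatments had correlations from 0.78 to 0.86, so the set numbers were taken to pair the arrays, and the set as a replicate block was the alternative fit. SE values of treatment differences are from the fit without the set, and those of set differences from a fit with treatment and set. Counts of members and medians have no test. Motifs and alignments used Python 3.11.15 and Biopython 1.88. Alternatives covered normexp background correction with an offset of 50, scaling by quantiles or array medians, filters, the choice of probe, moderation, the threshold, the deposited log2 values and leaving out each array. A description by KRAB domain and number of fingers was not made, since no protein table was used here. With 2 arrays a treatment, precision is set by their number.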

Additional observations from a re-analysis of the deposited data

Results flagged for a closer look

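With Fc against PBS the median member difference was 0.045 in set 1 and -0.013 in set 2. With Ecrg4(133-148) against PBS it was 0.022 in set 1 and -0.063 in set 2. In both comparisons the medians had opposite signs in the sets, and the difference between the sets was not tested. The medians of all genes were 0.061 and 0.010 with Fc against PBS, and 0.075 and -0.005 with Ecrg4(133-148) against PBS. Beside genes of similar level the members stood at -0.003 and -0.020, and at -0.023 and -0.032. Those values had the same sign in both sets.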

How the results depend on the processing

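With 2 arrays a group, the number of arrays and the signal over background of dim probes limit these results. No gene was called for any treatment comparison under any setting tried that leaves no array out, the set as a replicate block included, or with each array left out in turn without that block. With the set as a replicate block and an array left out, a setting chosen after seeing the data, 0 to 481 genes were called for Ecrg4(71-132) against Fc, 0 to 1077 for Ecrg4(71-132) against PBS and 0 to 1019 for both fusions against both controls. The highest counts came without the Ecrg4(71-132) array of set 1. Without the PBS array of set 1, 3 genes were called for Ecrg4(71-132) against PBS, and without the Fc array of set 1, 1 gene for Ecrg4(71-132) against Fc. Between the sets, 18666 genes were called with no filter on dim probes, over a larger number of genes tested. Of the 265 members 121 were called there, and the share of all genes called is not given here. Centred on array medians, 76 members were lower in both sets for Ecrg4(71-132) against Fc, 73 for Ecrg4(133-148) against Ecrg4(71-132) and 10 for Fc against PBS, since that centring moves 0 for all genes. Beside genes of similar level, the median for Ecrg4(133-148) against Fc was -0.015 after normexp background correction, the cause was not tested, and for Fc against PBS it ran from -0.020 to -0.003 with an array left out. For Ecrg4(133-148) against Ecrg4(71-132) it ran from -0.016 to 0.044, and for Ecrg4(71-132) against Fc from -0.067 to -0.025. With only named genes as similar genes, this median was -0.029 for Ecrg4(71-132) against Fc, where it was -0.048 with all genes. For Ecrg4(133-148) against Ecrg4(71-132) it was 0.011, where it was 0.021 with all genes. Counts of members lower in both sets need every array and have no value with one left out.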
